A study of Mus musculus with 2 samples.

Results

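A set of 9 retinoic acid genes were followed through the developing mouse foregut: the synthesis enzymes Aldh1a1, Aldh1a2 and Aldh1a3, the breakdown enzymes Cyp26a1 and Cyp26b1, the binding proteins Crabp1 and Crabp2, the receptor Rarb and the retinaldehyde reductase Dhrs3. They were chosen by name for their known roles, but with earlier results of these data known, and all 9 of 9 have a row among the 19550 genes measured. Counts of them past 2-fold, given below beside the share over all genes, are therefore descriptions. Cells came from wild type C57BL/6 mice at embryonic day 15 (E15) and day 19 (E19), as pups of 2 days and as adults of 8 weeks. At each stage the esophagus, the gastroesophageal squamocolumnar junction (GE-SCJ) and the stomach were dissected, digested with collagenase II, tagged by region and stage (10x Genomics CellPlex) and sequenced as a single 3′ single-cell library of 7808 cells. Every group carried the same genotype and no treatment, and adult stomach cells are not analysed here, which leaves 11 groups of region and stage. Cells of several mice were combined within each tag and cannot be assigned to a mouse here, so a group is a single sample without replicates and no difference was tested.

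Retinoic acid is made from vitamin A in a pair of oxidation steps. Retinol is first turned into retinaldehyde, a step that Dhrs3 reverses, and the Aldh1a enzymes then oxidise retinaldehyde irreversibly to retinoic acid. Crabp1 and Crabp2 bind the acid in the cytosol, Rarb and its relatives are nuclear receptors that switch genes on when they bind it, and the Cyp26 enzymes hydroxylate it for removal. In the embryo the mesenchyme is a known source of retinoic acid for the overlying gut epithelium, and in squamous epithelium vitamin A is known to hold back keratinisation. Rarb, Cyp26a1, Crabp2 and Dhrs3 are themselves widely used as readouts of the signal.

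The receptor acts at a retinoic acid response element, most often a direct repeat of a 6-base half-site (A or G, then G, then G or T, then TCA) with 5 bases between the copies, called DR5. Promoter sequence covering 250 bases before and 50 bases after the start was at hand from RefSeq (GRCm38.p6) for 7 of the 9 genes, and a DR5 on either strand was found for Rarb and Cyp26a1 alone among them. Across all 32851 promoters of this length, 0.0974% held one. The same half-site with 2 bases or 1 base between the copies (DR2 and DR1) stood in 0.268% and 0.222% of promoters and in none of the 10 promoters at hand for these 7 genes. Both upstream stretches are shown because they carry the element by which these genes are read as response genes; each is printed 5′ to 3′ on the strand of its gene, and capitals mark the DR5.
Rarb, chr14:16575477-16575726, minus strand: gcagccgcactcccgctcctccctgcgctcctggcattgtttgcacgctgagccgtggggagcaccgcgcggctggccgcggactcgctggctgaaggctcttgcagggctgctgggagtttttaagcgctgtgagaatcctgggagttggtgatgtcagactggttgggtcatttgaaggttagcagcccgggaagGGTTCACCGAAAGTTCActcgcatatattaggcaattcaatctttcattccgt
Cyp26a1, chr19:37697558-37697807, plus strand: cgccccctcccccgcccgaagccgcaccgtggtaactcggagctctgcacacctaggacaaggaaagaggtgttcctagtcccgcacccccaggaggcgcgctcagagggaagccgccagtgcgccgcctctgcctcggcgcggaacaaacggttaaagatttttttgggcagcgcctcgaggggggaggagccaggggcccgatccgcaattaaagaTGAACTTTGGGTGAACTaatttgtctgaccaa
In Rarb the 17 bases of the element lie 53 to 37 bases before the start of the RefSeq transcript, which lies inside the gene span given next and not at its outer end, and read in the direction of the gene. In Cyp26a1 they lie 32 to 16 bases before it and read in the opposite direction. A match is a description of letters and was not tested as a bound site here. Over the 55 groups of cells described below, the levels of these 2 genes had a Pearson's r of 0.231.

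On GRCm38 (GENCODE M21), Aldh1a1 spans chr19:20492715-20643465, Aldh1a2 chr9:71215789-71296243, Aldh1a3 chr7:66390890-66427517 and Cyp26a1 chr19:37697798-37701536. Cyp26b1 spans chr6:84571414-84593908, Crabp1 chr9:54764748-54773110, Crabp2 chr3:87948666-87953376, Rarb chr14:16430839-16819156 and Dhrs3 chr4:144892827-144928209. All are protein-coding genes, and the 3′ chemistry counts molecules mainly at the end of their transcripts without telling isoforms apart.

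Levels are given as CPM (counts per 1e6): for each group, the unique molecular identifiers (UMIs) of a gene were added up over its cells and scaled to the total of all genes. Parentheses hold exact 95% Poisson intervals, and intervals of ratios and shares are exact as well. They cover counting error only, not differences between mice. Those of CPM and of ratios treat the UMIs as independent, so they also leave out differences between cells. The authors' 9 cell labels were used as deposited, and 55 combinations of label, region and stage held at least 20 cells. The 11 region and stage groups held 143 to 1403 cells and 2302227 to 20070615 UMIs, with medians of 4957 to 15676 UMIs per cell. Of each marker list, the summed CPM was highest in the label of that name, with 1 exception. The mesothelial list (Upk3b, Wt1, Msln, Lrrn4, Upk1b) stood at 2090 CPM in the second stromal label (Stromal-2) and 9.12 CPM in the stromal label, but at 2931 CPM in the small second squamous label, where 2 of the 5 genes were at 0. Most of the 15 nearest neighbours of 267 of the 7808 cells came from the other side of birth, among them 24 of 143 adult GE-SCJ cells. They also made up 10 of 44 pup GE-SCJ squamous cells and 5 of 20 E19 esophageal columnar cells. In pup smooth muscle they were 10 of 119 cells at the GE-SCJ and 13 of 113 in the stomach. Those in pup stroma and pup esophageal smooth muscle are given beside the results.

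**Figure D1:**
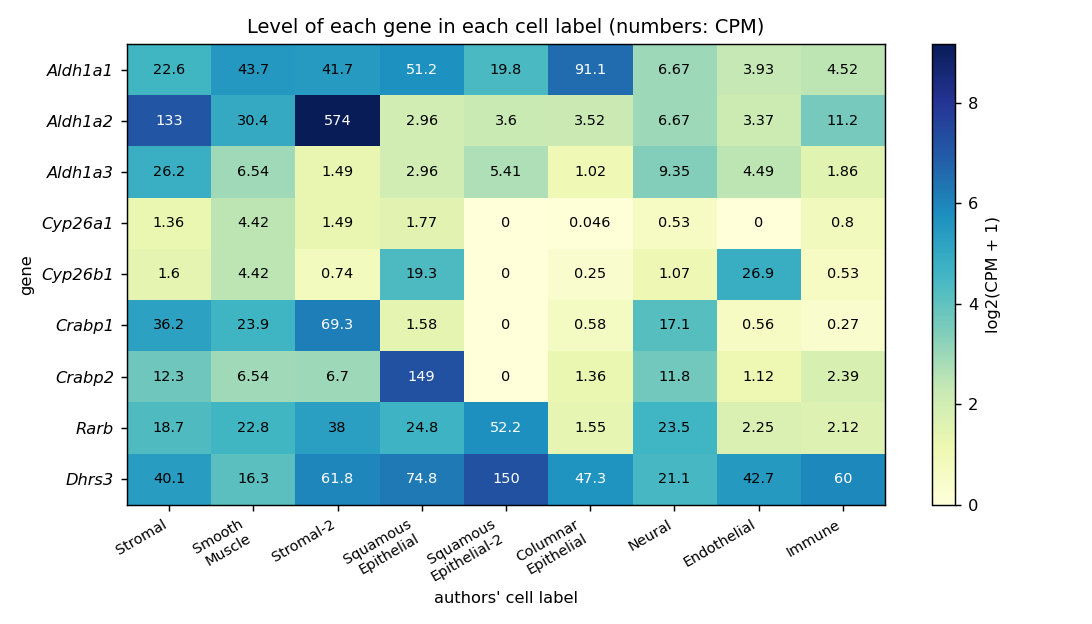
Level of the 9 genes (rows) in the authors' 9 cell labels (columns), all regions and stages summed; colour is log2(CPM + 1) and the number in each field is the CPM. Aldh1a2 reached 574 CPM in Stromal-2 and 133 CPM in stromal cells, Aldh1a1 was highest in columnar epithelium at 91.1 CPM, and Crabp2 in squamous epithelium at 149 CPM.

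The 9 genes divided the labels among them. Aldh1a2, the main embryonic synthesis enzyme, was a gene of mesenchyme: 76.0% of its 5662 UMIs lay in stromal cells and 13.6% in the 139 cells of Stromal-2. Of the 1052 UMIs of Aldh1a3, 81.0% lay in stromal cells. Aldh1a1, by contrast, lay mainly in columnar epithelium, with 68.1% of its 5781 UMIs, although its level in squamous epithelium (51.2 CPM, 46.9 to 55.8) and smooth muscle (43.7 CPM, 39.8 to 47.8) was also above that in stromal cells (22.6 CPM, 21.0 to 24.3). Columnar cells held 43221361 of the 107865155 UMIs of all genes. Outside cluster 12, described below, columnar clusters 2 and 5 held 34.6 and 30.3 CPM of Aldh1a1. Among the breakdown enzymes, Cyp26a1 (119 UMIs in all) was near-silent, with no UMI in 41 of the 55 groups. Cyp26b1 (362 UMIs) was carried by squamous epithelium at 19.3 CPM (16.7 to 22.2) and by endothelial cells at 26.9 CPM (19.9 to 35.7), where 47.9% of its UMIs came from 2 cells. Crabp1 was mesenchymal (71.9% of 1634 UMIs in stromal cells), Crabp2 squamous (71.8% of 2102 UMIs), and Rarb was shared by mesenchyme, squamous epithelium and neural cells while columnar cells held 1.55 CPM (1.20 to 1.97). Dhrs3 was the one gene with a UMI in all 55 groups, from 7.77 to 187 CPM.

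Immune cells, some of which are known to make retinoic acid, held 4.52 CPM of Aldh1a1, 11.2 CPM of Aldh1a2 and 1.86 CPM of Aldh1a3, and 10 of their 21 cells with a UMI of Aldh1a2 had more than 1. Their level is given as a value and not as a background. After thinning every cell to 5000 UMIs, 84.2% of Stromal-2 cells, 35.6% of stromal cells and 3.16% of immune cells kept a UMI of Aldh1a2 (median depths before thinning 8353, 8940 and 8267 UMIs). For Crabp1 the thinned share was 5.71% of stromal and 0.395% of immune cells.

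In stromal cells of the esophagus, Aldh1a2 went from 139 CPM (127 to 151) at E15 to 304 CPM (291 to 317) at E19. The pup had 84.4 CPM (63.2 to 110), and the adult 31.0 CPM (10.1 to 72.2). In those of the stomach it stood at 35.1 CPM (29.4 to 41.6), 78.2 CPM (71.6 to 85.2) and 94.1 CPM (67.8 to 127) from E15 to the pup. The GE-SCJ lay between them before birth, at 81.7 CPM (72.8 to 91.4) and 96.7 CPM (88.8 to 105), and held 86.4 CPM (59.8 to 121) in the pup. Thus the 3 regions were ordered at E15, with intervals that did not overlap, and by the pup stage their intervals all overlapped. The thinned share of stromal cells with a UMI of Aldh1a2 had the same order at E15, at 41.0% in the esophagus, 28.1% at the GE-SCJ and 12.9% in the stomach, and reached 65.7% in the E19 esophagus.

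Aldh1a3, which makes retinoic acid in epithelia and mesenchyme of several organs, followed a similar regional order at a lower level. It measured 23.4 CPM (18.8 to 28.7) in E15 esophageal stroma, 22.0 CPM (17.5 to 27.3) at the GE-SCJ and 9.17 CPM (6.39 to 12.8) in the stomach. At E19 the esophagus held 45.7 CPM (40.8 to 51.0) against 21.7 CPM and 19.2 CPM at the GE-SCJ and in the stomach. Its highest level in any group was in pup GE-SCJ stroma, 94.0 CPM (66.2 to 130) from 37 UMIs in 82 cells, above pup esophagus (35.0 CPM, 22.0 to 53.0) and pup stomach (26.9 CPM, 13.9 to 46.9).

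Aldh1a1 showed little regional difference in stroma and an order by stage instead. Esophageal stroma held 8.93 CPM (6.18 to 12.5) at E15 and 22.9 CPM (19.5 to 26.8) at E19. Pup and adult values there were 63.7 CPM (45.5 to 86.7) and 111 CPM (66.0 to 176). At the GE-SCJ it was 11.9, 31.1 and 55.9 CPM, and in the stomach 9.95, 26.3 and 49.3 CPM, from E15 to the pup. At each of these stages the intervals of the 3 regions overlapped.

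**Figure D2:**
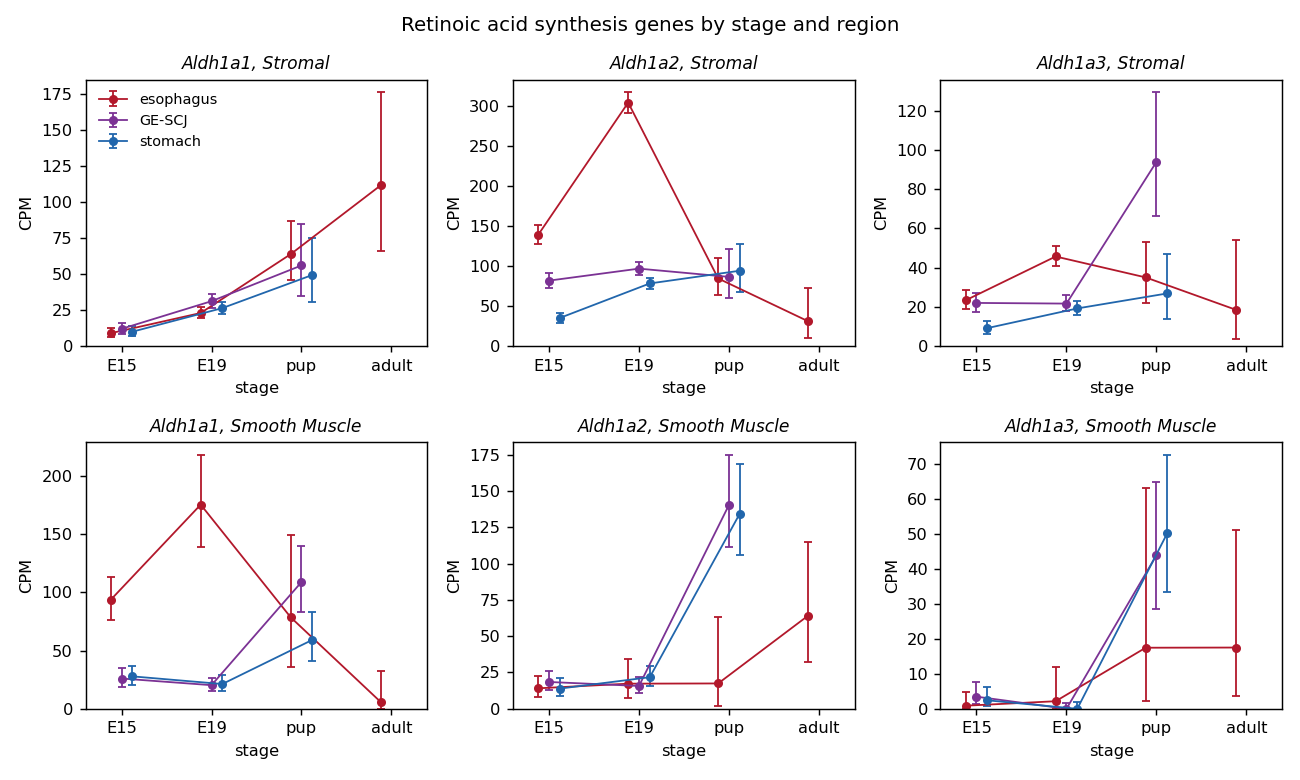
CPM (y axis) of the 3 synthesis genes by stage (x axis) in stromal (top) and smooth muscle cells (bottom); colours are regions, points are pooled samples and bars exact 95% Poisson intervals. In stroma, Aldh1a2 peaks at 304 CPM in the E19 esophagus while Aldh1a1 is higher at each later stage; in smooth muscle, Aldh1a2 and Aldh1a3 are high in pup GE-SCJ and stomach.

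Set against each other, stomach and esophagus stroma differed at least 2-fold in 4 of the 7 retinoic acid genes with at least 30 UMIs at E15, where 7.23% of all 11419 genes with as many UMIs did so. Aldh1a2 (log2 ratio of stomach over esophagus -1.98, interval -2.26 to -1.70) and Aldh1a3 (-1.32, -1.92 to -0.75) were lower in the stomach. Crabp1 (3.38, 3.00 to 3.77) and Rarb (1.69, 1.16 to 2.25) were higher there. At E19 it was 5 of 7, beside 9.51% of all genes: the same 4 in the same directions, with Aldh1a2 at -1.96, Aldh1a3 at -1.24, Crabp1 at 3.34 and Rarb at 1.87, together with Dhrs3 at -1.22 (-1.46 to -0.98). In the pup none of the 4 genes with enough UMIs was past 2-fold, beside 7.55% of all genes, at 446519 UMIs for the stomach and 627893 for the esophagus. Here Aldh1a2 had a ratio of 0.16, with an interval of -0.45 to 0.77 that leaves out the prenatal difference. Before birth Aldh1a2 and Aldh1a3 thus lay on one side of this comparison and Crabp1 and Rarb on the other. With median-of-ratios scaling the 5 genes at E19 kept their directions, while the share of higher genes among all genes past 2-fold went from 61.9% to 51.0%.

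The authors' clusters split the stromal label along the same lines, and the regions were not drawn from the same clusters. Cluster 1, whose leading genes against other stromal cells were Sostdc1, Col6a6 and Col6a5, held 58.8% of E15 and 91.8% of E19 esophageal stroma and at most 1.43% of any other prenatal stromal group, and its Aldh1a2 level was 292 CPM. Cluster 0, led by Fam162b, Nrg1 and Ccl11, held 59.7% to 75.3% of prenatal GE-SCJ and stomach stroma and 96.8 CPM of Aldh1a2. Cluster 3, led by Kit, Crabp1 itself and Smoc2, occurred in all 3 regions before birth. Within cluster 3 at E15, Crabp1 measured 413 CPM in the stomach, 244 CPM at the GE-SCJ and 32.1 CPM in the esophagus. Aldh1a2 in this cluster measured 36.9 CPM (27.71 to 48.13) in the esophagus, 14.4 CPM (7.68 to 24.65) at the GE-SCJ and 32.9 CPM (24.35 to 43.51) in the stomach. The intervals of esophagus and stomach overlapped. At E19 the Aldh1a2 of cluster 3 was 53.2, 14.6 and 11.6 CPM in the same order. Within cluster 0 at E15, Aldh1a2 measured 99.1 CPM (87.8 to 111) at the GE-SCJ and 36.5 CPM (29.2 to 45.1) in the stomach, while Crabp1 measured 13.2 CPM (9.28 to 18.2) and 17.2 CPM (12.3 to 23.4), with overlapping intervals.

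Age was followed in stroma by setting the pup against E15. In the esophagus 4 of 7 genes were past 2-fold, where 24.5% of all genes were. Aldh1a1 was higher in the pup (log2 ratio 2.83, 2.14 to 3.52). Crabp1 fell from 62 UMIs to 0, at least 3.41-fold lower, Crabp2 from 105 UMIs to 1 (-3.13, -6.19 to -1.24) while Rarb had 38 UMIs at E15 and 1 in the pup (-1.68, -4.78 to 0.27, an interval that holds 0). At the GE-SCJ 4 of 7 were past 2-fold, beside 24.8% of all genes: Aldh1a1 (2.26, 1.47 to 3.01) and Aldh1a3 (2.11, 1.52 to 2.68) higher, Crabp1 (-3.76, -6.82 to -1.90) and Rarb (-1.82, -3.46 to -0.57) lower. In the stomach it was 6 of 7, beside 21.8%: Aldh1a1 (2.33), Aldh1a2 (1.45) and Aldh1a3 (1.63) higher, Crabp1 at least 25.5-fold lower (655 UMIs against 0), and Crabp2 (-1.95) and Rarb (-1.56) lower. Aldh1a1 was past 2-fold higher and Crabp1 and Rarb past 2-fold lower in all 3 regions, whereas Aldh1a2 had a ratio of -0.69 (-1.13 to -0.29) in the esophagus. In the stomach the share of higher genes among all genes past 2-fold was 46.0%, and 57.6% with median-of-ratios scaling, under which the 6 genes kept their directions.

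These stage differences came with other clusters and depths. Pup stroma lay to 76.9% to 98.7% in cluster 9, which held at most 0.947% of any prenatal stromal group, and the stress genes Hspa1a (824 CPM) and Hspa1b (791 CPM) were among its 8 leading genes. Median depth was 3859 to 5073 UMIs per cell in pup stroma and 9858 to 10573 at E15. Cells with mostly prenatal neighbours made up 14 of 78 pup stromal cells in the stomach, 10 of 82 at the GE-SCJ and 5 of 151 in the esophagus. Without such cells the counts of genes past 2-fold stayed within 1.5 times of those above, and the part of stress and depth in these ratios was not tested.

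From pup to adult, esophageal stroma could be compared with 31 adult cells and 161569 UMIs. Of 3 genes with enough UMIs, 2 were past 2-fold, beside 18.6% of all genes. Dhrs3 was higher in the adult, at 111 CPM (66.0 to 176) against 38.2 CPM (24.5 to 56.9). Aldh1a2 was lower at 31.0 CPM, from 5 UMIs, and its ratio of -1.21 had an interval of -2.72 to 0.00.

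The second stromal label carried a synthesis profile of its own. Aldh1a2 reached 571 CPM (507 to 640) at the E19 GE-SCJ and 571 CPM (470 to 686) in the pup stomach, the 2 groups with 20 cells or more and the highest levels of any gene of the set. Aldh1a3 was all but missing, with 2 UMIs in 139 cells. Against the stromal label 3 of 9 genes were past 2-fold, beside 23.8% of all genes: Aldh1a2 (2.12, 2.00 to 2.23) and Rarb (1.04, 0.61 to 1.46) higher and Aldh1a3 (-3.56, -5.84 to -2.004) lower. Crabp1 was close behind at 69.3 CPM against 36.2 CPM (0.95, 0.63 to 1.25), and 6 genes passed once the richest 1% of cells were left out gene by gene. All regions and stages were pooled here, and their mix differed between the labels. The E19 GE-SCJ gave 33.1% of Stromal-2 cells. The E19 esophagus, low in stromal Rarb, gave 1 of the 139 Stromal-2 cells but 739 of the 3442 stromal cells. The part of this mix in the ratios was not tested.

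Smooth muscle cells were low in Aldh1a2 and Aldh1a3 before birth, and higher in the pup GE-SCJ and stomach. Aldh1a2 measured 13.9 to 21.7 CPM in all 6 prenatal groups, and 140 CPM (111 to 175) and 134 CPM (106 to 168) in the pup GE-SCJ and stomach. Aldh1a3 measured 0 to 3.46 CPM before birth and 43.9 CPM (28.4 to 64.8) and 50.2 CPM (33.3 to 72.5) in the same pup groups. Pup esophageal smooth muscle, with 22 cells, 11 of them with mostly prenatal neighbours, held 17.5 CPM (2.11 to 63.0) of each. Here too the clusters changed, since cluster 11 held 79.8% and 89.4% of pup GE-SCJ and stomach smooth muscle cells but at most 3.75% of a prenatal group. Its leading genes Rgs5, a gene of pericytes, and Apoe and Mfap5 are not contractile genes, and the stress gene Hspa1a (902 CPM) was among them; their part in the result was not tested. Adult esophageal smooth muscle, 76.7% of it in cluster 11, held 64.2 CPM of Aldh1a2, which gave 73.3% of its 15 Aldh1a UMIs. Its 23 cells of cluster 11 held only 4 of these Aldh1a2 UMIs, at 33.6 CPM (9.14 to 85.9). Within cluster 4, Aldh1a2 had no UMI in the 24 pup GE-SCJ cells, which allows up to 26.1 CPM.

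Aldh1a1 had a different place in this label. Esophageal smooth muscle held 93.5 CPM (76.6 to 113) at E15 and 175 CPM (139 to 218) at E19, against 20.3 to 27.8 CPM in the prenatal GE-SCJ and stomach. At E19, 57.5% of esophageal and 7.33% of stomach smooth muscle cells kept a UMI after thinning. The 41 esophageal cells of cluster 4 alone gave 179 CPM. Against other cells of its label, cluster 4 as a whole was led by Pcp4, Ckm and Tnnt2. The part of the makeup of these cells in the level was not tested. Adult esophageal smooth muscle had 1 UMI in 30 cells.

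Columnar epithelium of the stomach was set at E15 against the pup. Aldh1a1 stood at 15.8 CPM (12.1 to 20.3) at E15 and 32.0 CPM (28.6 to 35.8) at E19. The pup reached 185 CPM (178 to 193), a log2 ratio over E15 of 3.53 (3.17 to 3.92). At the GE-SCJ it was 64.2 CPM (51.3 to 79.4), 45.9 CPM (41.1 to 51.2) and 95.6 CPM (89.0 to 103), so the junction was above the stomach at E15 and below it in the pup. Of 3 genes with enough UMIs, 2 were past 2-fold in the stomach, beside 31.9% of all genes. Beside Aldh1a1 this was Aldh1a2, from 0.777 CPM (3 UMIs) to 3.68 CPM. In the pup, 20 of its UMIs lay in the 24 cells of cluster 2 (30.6 CPM, 18.7 to 47.3). Clusters 5 and 12 of the pup stomach held 2.16 and 1.83 CPM of it. Dhrs3 stayed at 40.9 to 54.8 CPM. Among all genes past 2-fold here, 30.1% were higher, and 52.5% with median-of-ratios scaling, under which both genes kept their direction.

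Of the Aldh1a1 UMIs of columnar cells, 68.9% lay in a single cluster. Cluster 12, with 194 cells and led by Atp4a and Atp4b, the subunits of the gastric proton pump of parietal cells, as well as by Cst8 and Tnni3, held 447 CPM, and clusters 2 and 5 held 34.6 and 30.3 CPM. It made up 0 of 140 E15 (which allows up to 2.6%, exact binomial), 25 of 366 E19 and 107 of 351 pup stomach columnar cells. Within cluster 12 of the stomach Aldh1a1 went from 167 CPM (E19) to 482 CPM (pup). Cluster 5, led by Clps and Pgc and making up 62.7% of pup stomach columnar cells, had 27.0 CPM there. Clusters were built on all genes, Aldh1a1 included, so these are descriptions of where the UMIs lay.

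Breakdown enzymes were sparse by comparison. Cyp26a1, the classical induced retinoic acid hydroxylase, had its highest levels in the esophagus: 19.1 CPM (9.87 to 33.4) in pup stroma, 15.9 CPM (9.41 to 25.1) in E15 smooth muscle and 11.2 CPM (5.59 to 20.03) in E15 squamous cells. The first of these rested on 12 UMIs, 58.3% of them in the 2 cells richest in it, and fell to 8.06 CPM without those cells. The second was broader, with UMIs in 12.9% of 93 cells. In the stomach, no stromal, smooth muscle or columnar group held a single UMI, which allows up to 0.786 CPM in E15 stroma and 0.263 CPM in pup columnar cells (3 counts). At the GE-SCJ smooth muscle held 7.50 CPM (4.00 to 12.8) at E15 and 7.03 CPM (4.096 to 11.3) at E19.

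The second squamous label had no UMI of Cyp26b1 in its 40 cells, but in the squamous label it was a gene of the later stages. In the esophagus it measured 11.2 CPM (5.59 to 20.03) at E15, of which 81.8% came from 1 cell, and 3.02 CPM (0.98 to 7.04) at E19. After birth the level was 28.0 CPM (16.0 to 45.5) in pups and 24.0 CPM (18.9 to 29.99) in adults. At the GE-SCJ there was no UMI at E15 or E19, then 32.0 CPM (19.8 to 49.0) in pups and 41.3 CPM (31.8 to 52.8) in adults. In pup GE-SCJ, columnar cells held 0.610 CPM (0.20 to 1.42), so the intervals of the 2 epithelia lay far apart.

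**Figure D3:**
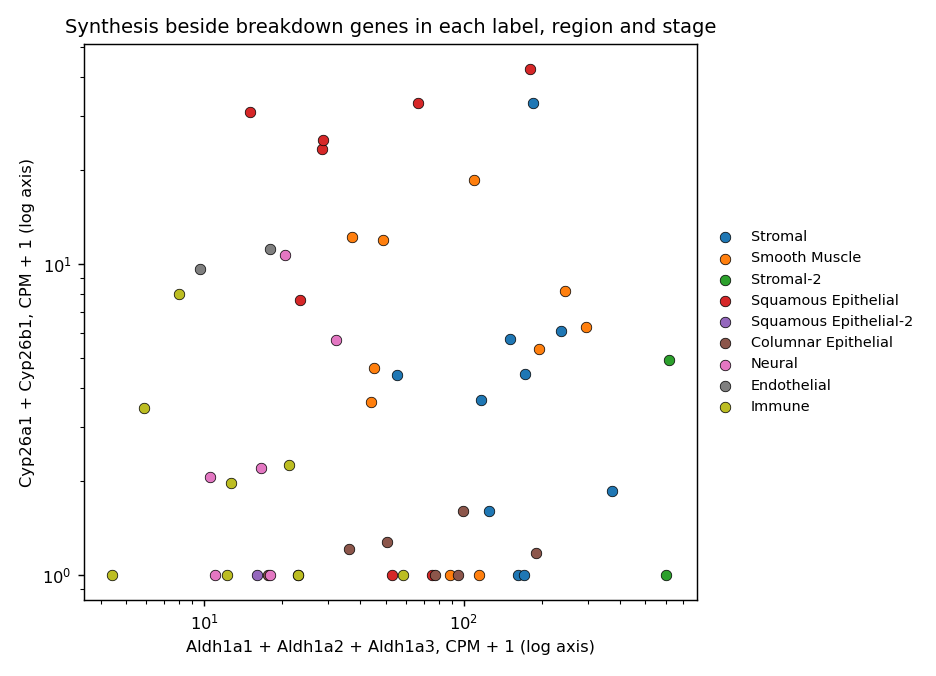
Summed CPM + 1 of the 3 synthesis genes (x axis, log) against that of the 2 breakdown genes (y axis, log) in the 55 groups of label, region and stage; colours are labels and each point is a pooled sample. The squamous label of the pup esophagus lies at 14.0 CPM of synthesis and 29.8 CPM of breakdown genes and that of the adult GE-SCJ at 179 CPM of synthesis genes, and Stromal-2 reaches 618 CPM of synthesis genes beside 3.90 CPM of breakdown genes.

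Summed over the genes of each kind, synthesis stood above breakdown in 52 of 55 groups. This counts any excess of UMIs, however small: E15 esophageal immune and pup stomach neural cells had 1 UMI against 0. The stromal label held 181 CPM (177 to 186) of Aldh1a UMIs and 2.96 CPM (2.40 to 3.61) of Cyp26 UMIs, and the columnar label 95.7 CPM (92.7 to 98.6) and 0.301 CPM (0.16 to 0.51). Squamous cells came closest to parity among the epithelia, at 57.1 CPM (52.6 to 62.0) and 21.1 CPM (18.4 to 24.1). In pup esophageal cells of the squamous label breakdown was nominally ahead, 29.8 CPM (17.3 to 47.7) against 14.0 CPM (6.05 to 27.6), with overlapping intervals. In the adult the values were 24.0 and 27.7 CPM. The second squamous label of the pup esophagus, with 29 cells, went the other way. It held 6 synthesis UMIs (14.9 CPM) and 0 breakdown UMIs, which allows up to 7.47 CPM (3 counts). All endothelial cells together held 26.9 CPM (19.9 to 35.7) of breakdown and 11.8 CPM (7.30 to 18.0) of synthesis UMIs, but 47.9% of the 48 Cyp26b1 UMIs came from 2 of the 157 cells. In neither of the endothelial groups of at least 20 cells was breakdown above synthesis, at 8.65 CPM of each in the E19 GE-SCJ and 10.1 against 16.9 CPM in the E19 stomach. The makeup of stromal synthesis also changed with age: Aldh1a2 gave 81.6% of Aldh1a UMIs in the E19 esophagus, 46.1% in the pup and 19.2% in the adult, where Aldh1a1 gave 69.2%. Adult GE-SCJ squamous cells held 179 CPM (158 to 201) of synthesis UMIs, 93.5% of them Aldh1a1, against 27.7 CPM (22.3 to 34.1) in adult esophageal squamous cells. Of the Aldh1a1 UMIs in adult GE-SCJ squamous cells, 35.9% came from 1 cell. After thinning, 46.3% of adult GE-SCJ and 10.5% of adult esophageal squamous cells kept a UMI of it, beside 1.98% of immune cells (median depths 14879, 9974 and 8267 UMIs).

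**Figure D4:**
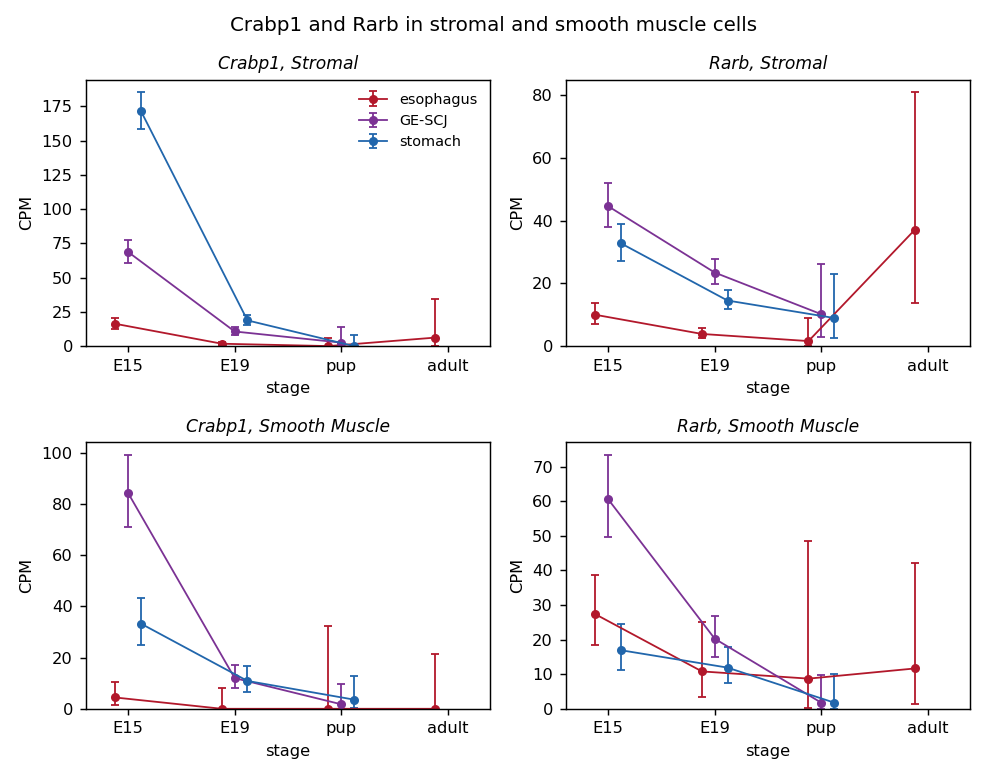
CPM (y axis) of Crabp1 and Rarb by stage (x axis) in stromal (top) and smooth muscle cells (bottom), colours by region, bars exact 95% Poisson intervals. At E15 Crabp1 stands at 172 CPM in stomach stroma and Rarb at 60.6 CPM in GE-SCJ smooth muscle and 44.6 CPM in GE-SCJ stroma; the adult esophageal stroma, at 37.1 CPM of Rarb, has a wide interval.

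Crabp1, a cytosolic binder thought to buffer or direct retinoic acid towards breakdown, had its highest stromal levels at E15 and, before birth, in the stomach. In stroma it measured 172 CPM (159 to 185) in the E15 stomach, 68.7 CPM (60.6 to 77.6) at the GE-SCJ and 16.3 CPM (12.5 to 20.9) in the esophagus, 3 intervals that did not overlap. At E19 the same order held at 18.7 CPM (15.6 to 22.4), 10.7 CPM (8.16 to 13.7) and 1.72 CPM (0.89 to 3.00), and the pup had 1 UMI in 311 stromal cells. Expression was uneven: 21.1% of E15 stomach stromal cells held a UMI, and the 4 richest cells, 1% of the group, held 24.6% of the UMIs. Without them the ratio of stomach to esophagus grew from 3.38 to 4.38, and in the esophagus the 4 richest cells held 62.9% of the UMIs. In smooth muscle the order was another, with 84.3 CPM (71.2 to 99.1) at the E15 GE-SCJ, 33.3 CPM (25.1 to 43.3) in the stomach and 4.41 CPM (1.43 to 10.3) in the esophagus. E15 esophageal neural cells held 37.3 CPM (25.3 to 52.9).

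Crabp2, which carries retinoic acid to the receptors, was measured in stroma and squamous cells at each stage. At E15 it was present at low level in most labels, with 27.6 CPM (22.5 to 33.4) in esophageal and 25.7 CPM (20.8 to 31.3) in stomach stroma and 41.7 CPM (29.95 to 56.6) in esophageal squamous cells. By the pup stage it had dropped to 1 UMI in each of the esophageal stromal and squamous groups. In the adult it stood at 337 CPM (317 to 358) in esophageal squamous cells and 212 CPM (190 to 237) at the GE-SCJ, and adult esophageal stroma held 24.8 CPM (6.75 to 63.4), from 4 UMIs in 1 cell. The adult UMIs were concentrated in RNA-rich cells, since the 58 deepest of the 232 esophageal squamous cells (16560 UMIs or more) held 94.3% of them, at 536 CPM. The shallower cells, in 3 sets by depth, had 36.4 to 52.8 CPM. At the GE-SCJ the 21 deepest of 86 cells held 79.3%. The mean of the cells' own CPM was 140, and the median depth in adult esophageal squamous cells was 9974 UMIs. Dhrs3 measured 59.3 CPM in the deepest esophageal cells and 58.3 to 77.4 CPM in the other sets.

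**Figure D5:**
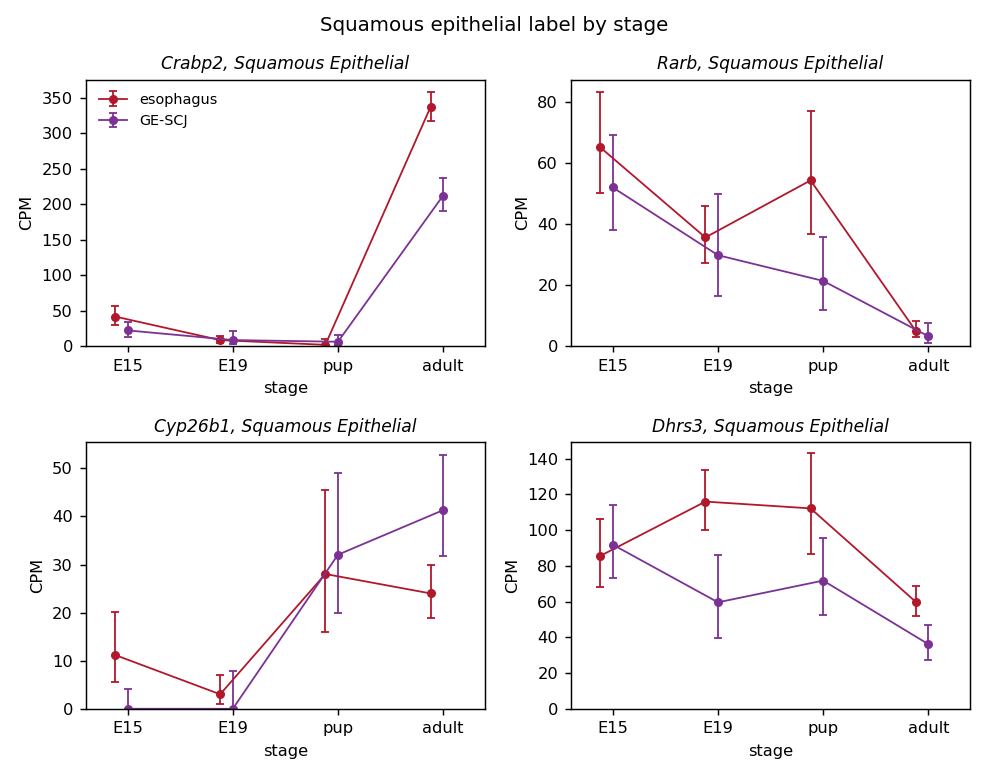
CPM (y axis) of Crabp2, Rarb, Cyp26b1 and Dhrs3 by stage (x axis) in the squamous epithelial label of the esophagus and the GE-SCJ, bars exact 95% Poisson intervals. Crabp2 is at 337 and 212 CPM in the adult and at most 41.7 CPM before, while Rarb is at 4.99 and 3.23 CPM in the adult and at least 21.4 CPM before.

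Rarb ran the other way in squamous epithelium. In the esophagus E15 cells had 65.1 CPM (50.2 to 83.2), E19 cells 35.6 CPM (27.1 to 45.9), pup cells 54.3 CPM (36.9 to 77.1) and adult cells 4.99 CPM (2.85 to 8.10). At the GE-SCJ it measured 52.0 CPM (38.2 to 69.1), 29.8 CPM (16.3 to 49.96), 21.4 CPM (11.7 to 35.8) and 3.23 CPM (1.05 to 7.53). For adult against E15 esophageal squamous cells, 2 of 5 genes were past 2-fold, beside 34.6% of all genes: Crabp2 at 2.98 (2.54 to 3.46) and Rarb at -3.64 (-4.51 to -2.85). Cyp26b1 lay just inside at 0.99 (0.11 to 2.01) and Aldh1a1 at -0.03 (-0.70 to 0.70). With median-of-ratios scaling Cyp26b1 passed too, and the share of higher genes among all genes past 2-fold went from 28.7% to 51.8%. Cyp26a1 went from 11 UMIs to 0 among 232 adult cells, at least 12-fold lower. The authors' clusters 10 and 7 split these cells by age, cluster 7 holding 99.6% of adult and 7.81% of E15 esophageal squamous cells.

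Rarb in mesenchyme was measured by stage and region. At E15 stroma held 44.6 CPM (38.1 to 51.8) at the GE-SCJ, 32.7 CPM (27.2 to 39.0) in the stomach and 9.97 CPM (7.06 to 13.7) in the esophagus, the first 2 intervals overlapping and the third apart. At E19 the values were 23.4, 14.5 and 3.87 CPM, and in the pup 10.2, 8.96 and 1.59 CPM, from 4, 4 and 1 UMIs. Adult esophageal stroma held 37.1 CPM (13.6 to 80.8), from 6 UMIs. E15 smooth muscle held 60.6 CPM (49.6 to 73.4) at the GE-SCJ against 27.3 CPM (18.6 to 38.8) in the esophagus and 16.9 CPM (11.2 to 24.5) in the stomach. E15 stomach neural cells held 38.3 CPM (26.8 to 53.0). The region with the most stromal Aldh1a2 before birth, the esophagus, was thus that with the least stromal Rarb. This compares regions, and the 2 genes are set side by side within cells of a region below. Other readouts did not all have this order. Stromal Dhrs3 was highest in the esophagus at E19 but not at E15, and E15 Crabp2 had overlapping intervals in esophageal and stomach stroma. Stromal cluster 3 held 12, 3 and 0 UMIs of Cyp26a1 in the esophagus, GE-SCJ and stomach at E15. At E19 it held 0, 13 and 0.

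At the GE-SCJ itself, squamous and columnar cells were compared within a stage. At E15, 1 of 3 genes was past 2-fold, beside 13.2% of all genes: Rarb, with 52.0 CPM in squamous and 9.07 CPM in columnar cells (2.43, 1.53 to 3.44). Aldh1a1 was 47.5 and 64.2 CPM (-0.42, -0.98 to 0.12) and Dhrs3 91.8 and 64.2 CPM (0.52, 0.06 to 0.97). In the pup neither of the 2 genes with enough UMIs, Aldh1a1 (-0.54, -1.02 to -0.10) and Dhrs3 (0.54, 0.08 to 0.98), was past 2-fold, beside 28.4% of all genes. Rarb (25.4 against 0.610 CPM) and Cyp26b1 (31.4 against 0.610 CPM) had 22 and 26 UMIs over both groups, under the minimum of 30, and log2 ratios of 5.198 (3.80 to 6.82) and 5.49 (4.14 to 7.08).

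Dhrs3, which returns retinaldehyde to retinol, was broad and highest in squamous cells. The second squamous label in the pup esophagus held 187 CPM (147 to 234), and the squamous label of the esophagus 85.5 CPM (68.2 to 106) at E15 and 116 CPM (100.1 to 134) at E19. Pup cells had 112 CPM (86.3 to 143) and adult cells 59.8 CPM (51.7 to 68.9). Esophageal stroma at E19 held 71.9 CPM (65.8 to 78.5) against 22.1 CPM (17.6 to 27.3) at E15. The GE-SCJ and stomach stroma stayed at 33.4 and 30.9 CPM at E19. Immune cells held 60.0 CPM (52.5 to 68.4) and smooth muscle, the lowest label named here, 16.3 CPM (14.0 to 18.9).

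Pairs of the genes were also looked for in the same cells. At the E19 GE-SCJ, thinned to 5000 UMIs, 17.9% (12.1% to 24.9%) of stromal cells with a UMI of Aldh1a2 also had one of Aldh1a3, against 5.67% (3.59% to 8.46%) of those without. At E15 it was 16.5% (9.53% to 25.7%) against 4.72% (2.38% to 8.29%). In E19 esophageal stroma, where most cells had Aldh1a2, the shares were 16.9% and 19.4%, with overlapping intervals. They were 12.9% and 5.79% in E15 esophageal, 0 and 3.53% in E15 stomach and 11.3% and 7.69% in E19 stomach stroma, all overlapping, so the intervals lay apart at the GE-SCJ alone among these regions. GE-SCJ stroma, like that of the stomach, mixed clusters that differed in both genes. At the E19 GE-SCJ, cluster 0 held 135 CPM of Aldh1a2 and 28.2 CPM of Aldh1a3, and cluster 3 held 14.6 and 6.17 CPM. The part of this mix in the shares was not tested. Crabp1 was met in 1.32% of Aldh1a2-positive and 5.15% of Aldh1a2-negative cells of the E19 GE-SCJ (0.16% to 4.70% and 3.18% to 7.85%), intervals that overlapped. Rarb was present in 23.8% of E15 GE-SCJ stromal cells with a Crabp1 UMI and 18.8% of those without, also overlapping.

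Across the 55 groups, with levels as log2(CPM + 10), the gene most like Aldh1a2 among 14758 was Lox, a collagen cross-linking enzyme (Pearson's r 0.880), followed by Rarres2 (0.857) and Adamts2 (0.857). For Aldh1a3 they were Pi15 (0.837), Mmp2 (0.825) and Ms4a4d (0.823), for Crabp2 Dkkl1 (0.815), Calm4 (0.804) and Nkpd1 (0.800), and for Cyp26b1 Dsc3, a desmosomal cadherin (0.779), Clca2 (0.761) and Gjb6 (0.757). Crabp1 was most like Gm16140 (0.744), Cnih2 (0.742) and 2700069I18Rik (0.735), and Dhrs3 like Anxa1 (0.708), Runx1 (0.672) and Arap2 (0.654). The likeness was weaker for Aldh1a1 (Chchd10 0.649, Acaa2 0.637, Wdsub1 0.622), Rarb (Cd99l2 0.649, Ajuba 0.643, Nyap1 0.621) and Cyp26a1 (Slc35f3 0.650, Bmper 0.505, Sema3d 0.495). Among the 9 themselves the highest values were 0.589 for Aldh1a2 with Aldh1a3, 0.459 for Crabp1 with Rarb and 0.457 for Crabp2 with Cyp26b1. The groups share a library and differ in depth and number of cells, and these coefficients are descriptions.

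Other genes came from a wider retinoid list of 75 genes, the 9 included, of which 67 have a row. Besides genes of vitamin A handling and receptors, it holds cofactors and genes known to respond to retinoic acid in some tissues. Of those named below, Tbx5, Isl1, Hoxa5, Meis2, Nr2f1, Nr2f2, Tgm2 and Rarres2 are of this last kind, and Nrip1 is a cofactor. Counts of list genes past 2-fold below also include the 9. Without them, E15 stomach against esophagus stroma had 6 of 42 higher and 3 lower. At E19 that comparison had 8 of 44 higher and 3 lower. Rdh10, the retinol oxidiser that precedes the Aldh1a step, measured 178 CPM in the second squamous label, 41.0 CPM in smooth muscle and 36.8 CPM in stroma. Before birth its stromal order by region was the reverse of that of Aldh1a2. At E15 it was 33.6 CPM (28.0 to 39.95) in the esophagus, 44.8 CPM (38.3 to 52.1) at the GE-SCJ and 61.3 CPM (53.7 to 69.7) in the stomach. At E19 these values were 16.6 CPM (13.7 to 19.9), 35.0 CPM (30.3 to 40.2) and 44.9 CPM (39.96 to 50.3). Adh7, a retinol-oxidising alcohol dehydrogenase, measured 233 CPM in squamous cells and at most 18.8 CPM in any other label. Of the other receptors, Rara ranged from 5.41 CPM in the second squamous label to 78.8 CPM in neural cells, and Rarg was highest in squamous cells at 55.1 CPM. Stra6, the membrane carrier for retinol, was at most 3.72 CPM in any label as a whole. The 31 adult esophageal stromal cells held 43.3 CPM (17.4 to 89.3) of it, from 7 UMIs. Cyp26c1 is not analysed here.

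Between E15 stomach and esophagus stroma, 8 of 49 list genes were past 2-fold higher and 5 lower, beside 7.23% of all genes past 2-fold in either direction, with a list median of 0.16 beside 0.12 over all genes; Tbx5 was lower (0.524 against 26.5 CPM, -5.09), Isl1 (203 against 10.2 CPM, log2 ratio 4.27) and Hoxa5 (64.4 against 17.6 CPM, 1.86) were higher and Rbp4, the retinol carrier, lower (6.55 against 28.9 CPM, -2.10). At E19 the counts were 10 and 6 of 51 (beside 9.51% of all genes, medians 0.15 and 0.14): Tbx5 had no UMI in the stomach against 22.4 CPM in the esophagus, at least 49.3-fold lower, Isl1 (4.66) and Hoxa5 (4.31) were again higher, Adh1, an alcohol dehydrogenase acting on retinol, was lower (7.41 against 154 CPM, -4.35). In the pup they were 3 and 2 of 32 (beside 7.55%, medians -0.06 and 0.06), with Adh1 lower (-1.62). From E15 to pup, esophageal stroma had 7 of 46 genes higher and 5 lower, beside 24.5% of all genes (medians 0.02 and -0.08), with Adh1 higher (363 against 21.5 CPM, 4.07), the GE-SCJ 9 and 8 of 46 beside 24.8% (medians -0.02 and -0.06), with Rarres2 higher (742 against 178 CPM, 2.06), and the stomach 8 and 5 of 46 beside 21.8% (medians 0.06 and -0.07), with Rarres2 at 2.09 and Rdh10 at -1.32 (22.4 against 61.3 CPM). Adult against pup esophageal stroma gave 4 and 5 of 24 beside 18.6% (medians 0.02 and 0.03), with Nrip1 (-1.51) and Adh1 (-1.18) lower.

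Adult against E15 esophageal squamous cells had 11 of 42 list genes higher and 12 lower, beside 34.6% of all genes past 2-fold in either direction, with a median of -0.26 beside -0.48 for all genes. Rdh12 (164 against 7.13 CPM, 4.33), Rbp2 (426 against 23.4 CPM, 4.12) and Adh7 (440 against 25.5 CPM, 4.05) were higher, and Meis2 (30.5 against 413 CPM, -3.75) was lower. Pup against E15 stomach columnar cells had 9 and 9 of 43 beside 31.9% of all genes (medians -0.22 and -0.39): Rbp2, the intestinal retinol binder (319 against 18.1 CPM, 4.12), Adh7 (29.0 against 2.59 CPM, 3.35) and Adh1 (44.2 against 7.77 CPM, 2.46) were higher and Meis2 (-1.99) and Rbp4 (-1.90) lower. Squamous against columnar GE-SCJ cells had 8 and 5 of 32 at E15 beside 13.2% (medians 0.14 and -0.09), with Nr2f2 lower (-3.04), and 11 and 10 of 40 in the pup beside 28.4% (median -0.04, or -0.003 with genes at 0 set to their bound, and -0.002 over all genes), with Rbp4 (-4.46) and Rbp2 (-3.33) lower and Adh7 higher (1.97). The second stromal label had 13 and 9 of 58 beside 23.8% (median 0.22, or 0.24 with genes at 0 set to their bound, and 0.01 over all genes), with Tgm2 (258 against 61.1 CPM, 2.08) and Rarres2 (1069 against 284 CPM, 1.91) higher and Tbx5 (0.745 against 9.34 CPM, -2.65) and Nr2f1 (52.1 against 206 CPM, -1.96) lower. The mix of regions and stages differed between these labels, and its part in these ratios was not tested.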

How the data were processed

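Cells were tagged by region and stage and run in 1 library. Per the study's methods, the authors used Cell Ranger 6.1.1 with a 10x mouse reference on mm10 (GRCm38) to align reads and assign tags. Barcodes outside set ranges of gene number, UMI number and mitochondrial share were dropped by them, the upper ranges being meant for doublets. The authors deposited UMI counts that were not normalized, as well as the percent of mitochondrial UMIs, cluster and label of each cell; the highest mitochondrial percent was 19.7. No further doublets were removed. The 7808 barcodes are distinct, and no other library shares them apart from the tag library of the same cells.

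UMIs were summed by label, region and stage. Log2 ratios had 1 UMI added to each sum; a gene counted as past 2-fold with at least 30 UMIs over both groups. With 1 pooled sample a group, no test was run, and intervals cover counting error only. A sum of 0 is given the floor of 3 counts. Shares of cells were compared after thinning to 5000 UMIs (3000 as an alternative). The 12 comparisons were repeated under 10 alternatives. The squamous comparisons join both squamous labels. The 9 genes, the wider list and the comparisons were chosen with earlier results of these data known. Of the wider list, the genes open to naming were those past 2-fold with at least 100 UMIs, at most 8 a comparison in order of size. Not all of these are named, so a gene left unnamed can be past 2-fold. A few were named in every case, as were the 3 genes most like each of the 9. The list's genes without a row are not analysed here. A gene picked by this rule is not reported here. Ratios and intervals were tested on simulated data. Neighbours were the 15 nearest in 30 principal components of 2000 variable genes. Neighbours used scanpy 1.11.5 and scikit-learn 1.9.0, intervals scipy 1.17.1, and the rest pandas 2.3.3, matplotlib 3.10.9 and numpy 2.4.6 under Python 3.11.15.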

Additional observations from a re-analysis of the deposited data

Results flagged for a closer look

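From E15 to the pup, Aldh1a2 in the stromal label moved in opposite directions in the esophagus and the stomach. From E15 to E19 it was higher at the later stage in both. In the stomach the pup was higher than E15, at 94.1 against 35.1 CPM (log2 ratio 1.45, 0.91 to 1.95). In the esophagus the pup was lower, at 84.4 against 138.9 CPM (-0.69, -1.13 to -0.29). Cluster 9, nearly absent before birth, held 98.7% of pup stromal cells in the esophagus and 76.9% in the stomach. With a single pooled sample for each, the difference between the regions was not tested.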

How the results depend on the processing

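Of 120 recomputed counts of genes past 2-fold, 108 stayed within 1.5 times of those reported. Log2 ratios were recomputed only for the 33 calls past 2-fold. Of these 264 values 7 were counted as moved and none changed sign. Since all started at 2-fold or more, a lack of sign changes says little about smaller ratios. Of 54 recomputed highest CPM values 16, and of 27 recomputed shares of cells 6, fell outside the interval of the reported value. With at least 100 UMIs required, the count went from 4 to 1 for pup against E15 esophageal stroma, from 2 to 0 for adult against pup esophageal stroma, from 2 to 1 for adult against E15 esophageal squamous cells and for pup against E15 stomach columnar cells, and from 1 to 0 for squamous against columnar cells of the E15 GE-SCJ. Without a filter on UMIs it went from 0 to 4 for pup stomach against esophagus stroma, to 7 for adult against pup stroma, to 6 for the adult squamous and to 5 for the columnar comparison, and to 3 and 4 for squamous against columnar GE-SCJ cells at E15 and in the pup. With the richest 1% of cells of each gene left out, it went from 3 to 6 for the second stromal label. Median-of-ratios size factors placed the median gene at a log2 ratio of -0.38 (adult squamous) and -0.36 (stomach columnar), and between -0.14 and 0.14 in the other comparisons; Cyp26b1 then passed 2-fold in adult squamous cells. Averaging the CPM of single cells gave Crabp2 a log2 ratio of 1.62 in place of 2.98 in adult squamous cells, and cells with at most 10% mitochondrial UMIs gave Aldh1a1 142.5 in place of 185 CPM in pup stomach columnar cells. The 3 genes most like a gene changed with the pseudocount or the group size for all 9 genes. Depth limits what can be said of Cyp26a1, with 119 UMIs in all. No paired analysis was possible because each group is a single pooled sample.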
